A study of Mus musculus with 20 samples.

Results

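Tetrahydrobiopterin is the cofactor that nitric oxide synthases need to make nitric oxide, and the levels described here are those of 6 genes of that route: Gch1, Pts and Spr, which build the cofactor, Qdpr, which recycles it, and Nos1 and Nos3, which use it. They were taken as every probe set whose platform gene symbol is 1 of these 6 names, which gave 9 probe sets for the 6 genes, of 22626 probe sets and 12393 genes with a symbol of their own on the array. The genes were chosen with the levels in these same 4 groups in view, so their values are given as a description, with no test. RNA from skeletal muscle of 20 mice was hybridised, 1 array per mouse, in 4 groups of 5: untrained wild-type mice (titles beginning WTUT), trained wild-type mice (WTT), untrained transgenic mice (TGUT) and trained transgenic mice (TGT). Per the series title the training was endurance training and the transgenic mice over-express MHC-I. The labels do not spell out that abbreviation and give no construct, promoter, strain, muscle, age, sex or training protocol, and a free-text field that calls every sample transgenic and trained goes against the titles and source names and was not used.

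In the textbook route, GTP cyclohydrolase 1 (Gch1) takes GTP out of the purine pool and is the usual rate-limiting step, 6-pyruvoyltetrahydropterin synthase (Pts) forms the intermediate, and sepiapterin reductase (Spr) makes tetrahydrobiopterin itself. After use as a cofactor it is restored by a carbinolamine dehydratase (Pcbd1 or Pcbd2) and quinoid dihydropteridine reductase (Qdpr). In muscle the neuronal synthase Nos1 is anchored at the fibre membrane through the dystrophin complex, and the endothelial synthase Nos3 is known mainly from the vessels.

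Each value is the intensity of a probe set as the authors deposited it, on a linear scale that had already been set to a common level. Array medians lay between 157 and 175, and pairs of arrays correlated with r between 0.956 and 0.994 over probe sets. Empty cells numbered 822 on the array of mouse wtt-137 and 386 on that of TGT-133, the most of the 20 arrays. All 8 skeletal muscle markers were measured, and their summed intensity ran from 115612 to 122678 over the 20 mice. The class I genes H2-K1, H2-D1 and B2m differed between transgenic and wild-type mice, averaged over training, by -0.12 ± 0.15 (SE), -0.10 ± 0.16 and 0.03 ± 0.12 log2 (limma adjusted p = 0.724, 0.777 and 0.931), and whether these probe sets read the transgene is unknown. No label says more of how the 5 mice of a group relate to each other than their separate numbers. In whole muscle, fewer cells of a type and less RNA per cell cannot be told apart.

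The stretches of 250 bases before the start of Spr, Gch1 and Qdpr are shown because Spr was the member whose level differed most between the groups, Gch1 is the step that feeds it and Qdpr recycles its product. The sequences come from RefSeq on build GRCm38.p6, in which 5 of the 6 genes had an entry, and they lie on the minus strand at chr6:85137765-85138014, chr14:47189414-47189663 and chr5:45450230-45450479. Capitals mark GGGCGG (the GC box), CCAAT (the CCAAT box) and TGACG (part of a cAMP response element), each on either strand and with no overlap between the marked letters.
Spr: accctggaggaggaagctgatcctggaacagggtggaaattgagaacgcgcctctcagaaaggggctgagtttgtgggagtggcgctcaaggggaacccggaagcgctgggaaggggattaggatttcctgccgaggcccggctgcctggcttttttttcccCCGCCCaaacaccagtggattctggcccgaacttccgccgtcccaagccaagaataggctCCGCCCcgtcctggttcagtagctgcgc
Gch1: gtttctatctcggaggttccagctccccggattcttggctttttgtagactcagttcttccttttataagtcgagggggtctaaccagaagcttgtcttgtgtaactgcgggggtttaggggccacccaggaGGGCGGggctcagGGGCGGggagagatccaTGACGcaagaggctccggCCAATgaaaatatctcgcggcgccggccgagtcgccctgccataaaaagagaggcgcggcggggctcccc
Qdpr: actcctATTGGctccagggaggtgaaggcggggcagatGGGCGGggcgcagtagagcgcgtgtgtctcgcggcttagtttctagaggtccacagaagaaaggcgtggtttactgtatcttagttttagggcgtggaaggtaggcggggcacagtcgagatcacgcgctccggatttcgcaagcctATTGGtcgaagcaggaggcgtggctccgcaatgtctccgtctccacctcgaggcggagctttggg
The Spr stretch held 2 GC boxes, 28 and 88 bases before the start counted to the first marked base, and neither of the other marked motifs. Gch1 held 2 GC boxes, 1 CCAAT box and 1 cAMP response motif, while Qdpr held 1 GC box and 2 CCAAT boxes. Of 32851 stretches of the same length in the table, 32.7% held the GC box, 33.8% the CCAAT box and 17.8% the cAMP response motif. The TATA box (TATAAA, in 12.4% of stretches) was searched on both strands as well and was found once, before Gch1, unmarked here. The letters of the E-box (CACGTG, in 6.02% of stretches), of the estrogen-related receptor motif (AAGGTCA, in 4.08%) and of the core of the nuclear respiratory factor 1 site (GCGCATGC, in 2.26%) were not in the 3 windows on either strand. Such matches are a description of the letters. GC content was 60.8% before Spr, 59.2% before Gch1 and 59.6% before Qdpr, against a median of 52.4%.

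Spr, whose enzyme carries out the last step of tetrahydrobiopterin synthesis, was the member with the widest separation between groups. In untrained transgenic mice its single probe set (1432372_a_at) read 207.9 in TGUT-131, 185.4 in TGUT-139, 260.9 in TGUT-145, 240.0 in TGUT-146 and 252.9 in TGUT-147. In trained transgenic mice it read 319.2 in TGT-128, 344.3 in TGT-132, 333.8 in TGT-133, 346.1 in TGT-140 and 366.5 in TGT-143. Every trained transgenic mouse lay above every untrained one, with a gap from 260.9 to 319.2. The group means were 229.4 ± 31.9 and 342.0 ± 17.4 (SD, n = 5), and the difference on the log2 scale with the added constant was 0.47 ± 0.07 (SE), or 1.39-fold.

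In wild-type mice the Spr levels with and without training lay closer together. Untrained wild-type mice read 261.8 in WTUT-130, 269.2 in WTUT-135, 285.6 in WTUT-136, 271.6 in WTUT-138 and 289.0 in WTUT-142. Trained wild-type mice read 263.8 in WTT-129, 308.6 in wtt-134, 318.6 in wtt-137, 320.9 in WTT-141 and 319.0 in WTT-144. Of the trained mice 4 lay above all untrained ones, and WTT-129 lay among them. The means were 275.4 ± 11.5 and 306.2 ± 24.2 (SD, n = 5), a difference of 0.12 ± 0.07 log2, which was 0.17 without WTT-129.

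Ordered by mean, Spr was lowest in untrained transgenic mice, then in untrained wild-type, trained wild-type and trained transgenic mice, and each step was larger than the SD of either group beside it. Between the first and second of these the individual values did not overlap, but only just: the highest untrained transgenic mouse (260.9) and the lowest untrained wild-type mouse (261.8) were less than an SD apart, and the difference was -0.21 ± 0.07 log2. The trained groups overlapped (319.2 to 366.5 against 263.8 to 320.9), with a difference of 0.13 ± 0.07 log2. The transgenic value was thus the lower one without training and the higher one with it, and the training difference in transgenic mice exceeded that in wild-type mice by 0.35 ± 0.09 log2. Averaged over genotypes the training difference was 0.30 ± 0.05, and averaged over training the transgenic difference was -0.04 ± 0.05 (-0.01 without TGUT-139 and -0.06 without WTT-129). No test is attached to these Spr values, because they are among those that brought the gene forward.

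TGUT-139 and TGUT-131 held the lowest Spr values of the 20 mice. Without TGUT-139 the training difference in transgenic mice was 0.41 log2 and the transgenic difference in untrained mice was -0.16. Leaving out any 1 array gave 0.41 to 0.51 for the former and -0.25 to -0.16 for the latter. With an added constant of 1 in place of 66.7 the training difference in transgenic mice was 0.58, and with the table's median as the constant it was 0.37.

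**Figure D1:**
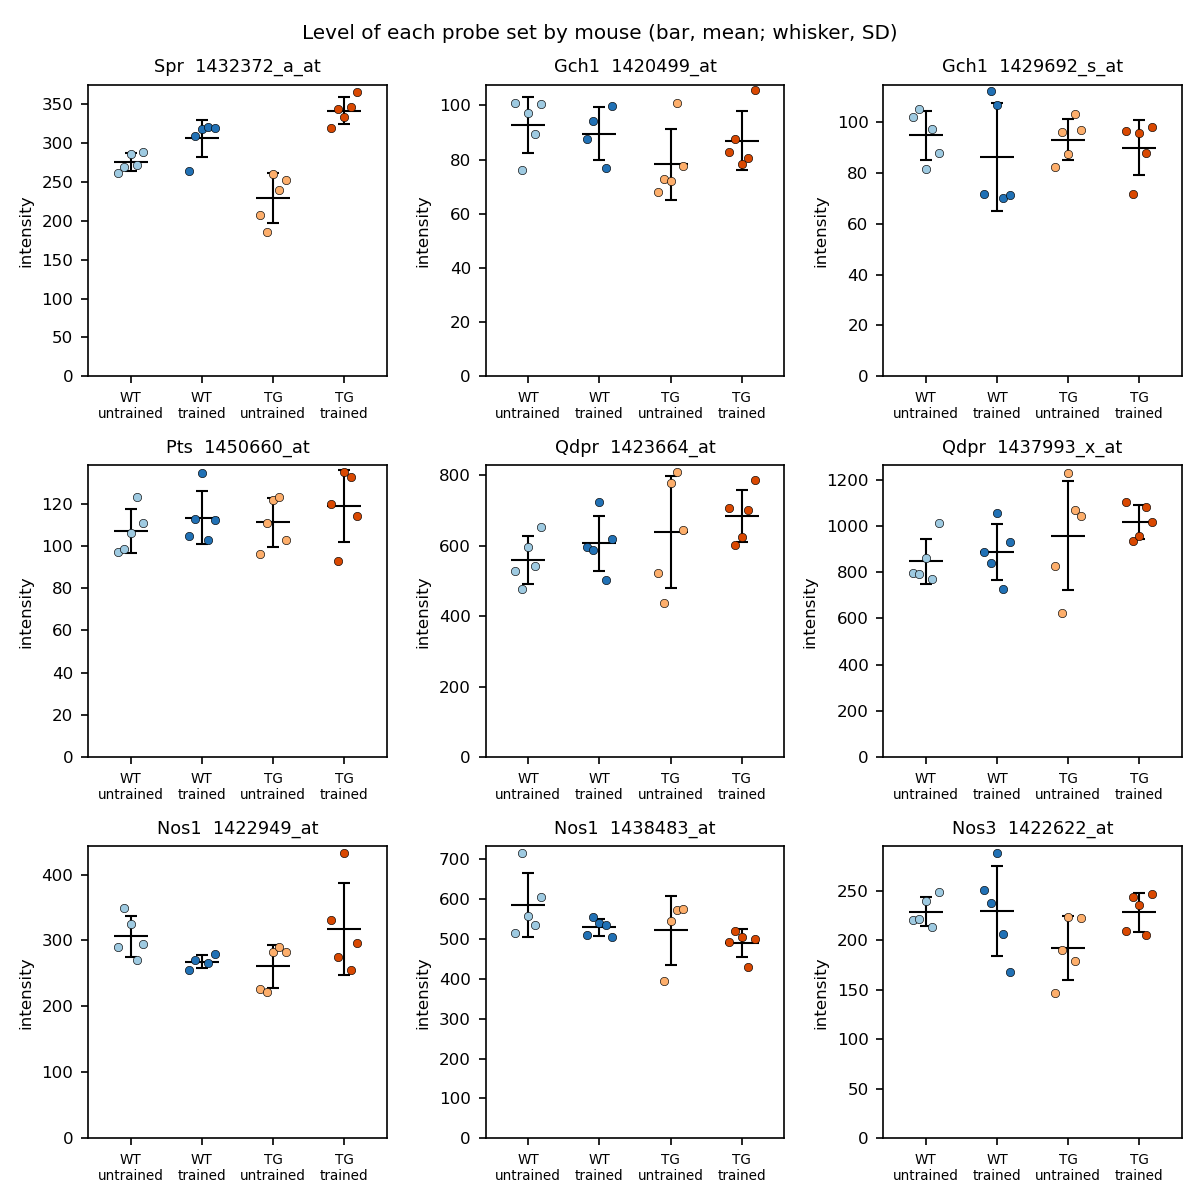
Intensity of the 9 probe sets (vertical axes, linear, from 0) in the 4 groups (horizontal axes), with 1 point per mouse, the mean as a bar and the SD as whiskers. The 5 trained transgenic mice sit between 319.2 and 366.5 for Spr, above all 5 untrained ones, while for the other probe sets the groups overlap in each single comparison.

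Gch1, the first enzyme of the route, was near the bottom of the array's range. Its probe set 1420499_at ran from 67.9 to 105.7 over 19 mice (wtt-137 has an empty cell) and 1429692_s_at, of a kind that can bind several transcripts, from 70.1 to 112.4 over 20. A probe set entered the tests at a mean of 7.59 log2 with the constant added, about 126 in intensity, and both lay below that with means of 7.26 and 7.30. Group means of 1420499_at were 92.9 ± 10.4 and 89.6 ± 9.74 (SD, n = 5 and 4) in wild-type mice without and with training, and 78.3 ± 13.2 and 87.0 ± 11.0 in the transgenic ones. Untrained transgenic mice had the lowest mean, as for Spr, with a difference from untrained wild-type mice of -0.14 ± 0.06 log2 that the other probe set did not share (-0.01 ± 0.08). With a constant of 1 it was -0.25 for 1420499_at. The 4 groups overlapped in both Gch1 probe sets, and in the order of the means no neighbours stood further apart than their SD.

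Pts, the middle enzyme, had values from 92.9 to 135.1 and a mean of 7.48 log2, also below the filter. Its group means spanned 107.0 ± 10.5 in untrained wild-type mice, 111.0 ± 11.7 in untrained transgenic, 113.4 ± 12.6 in trained wild-type and 118.9 ± 17.0 in trained transgenic mice (SD, n = 5). No neighbours in that order were further apart than their SD. The training differences were 0.05 ± 0.07 log2 in wild-type and 0.06 ± 0.07 in transgenic mice. With 1 array left out they ran from 0.01 (without wtt-137) to 0.08 (without WTUT-138) and from 0.03 (without TGT-133) to 0.11 (without TGT-132). The added constant understates differences at levels this low.

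Qdpr, the recycling reductase, was read by 2 probe sets that behaved alike, of which 1437993_x_at is of a kind that can bind several transcripts. On 1423664_at the untrained transgenic mice read 524.2 in TGUT-131, 438.2 in TGUT-139, 779.5 in TGUT-145, 809.5 in TGUT-146 and 646.2 in TGUT-147, and thus held both the lowest and the highest value of the 20 mice. Trained transgenic mice ran from 601.8 to 786.2, untrained wild-type mice from 478.7 to 653.9 and trained wild-type mice from 504.4 to 725.1. The group means were, in ascending order, untrained wild-type (560.4 ± 67.3), trained wild-type (606.9 ± 79.3), untrained transgenic (639.5 ± 160.0) and trained transgenic (684.2 ± 73.2; SD, n = 5), with every neighbouring pair closer than its SD. Averaged over training, transgenic mice differed by 0.15 ± 0.09 log2 on 1423664_at and by 0.17 ± 0.09 on 1437993_x_at. The training difference, averaged over genotypes, was 0.11 ± 0.09 and 0.09 ± 0.09, and without TGUT-139 it was 0.05 and 0.02. In transgenic mice alone it was 0.11 ± 0.13 on both. Without TGUT-139 it was 0.00 on the first and -0.02 on the second, while it was 0.20 on the first without TGUT-146 and 0.21 on the second without TGUT-145.

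Nos1, the neuronal synthase of the fibre membrane, was read by a pair of probe sets that took opposite signs for training in transgenic mice. On 1422949_at these mice read 331.4 in TGT-128, 274.4 in TGT-132, 432.0 in TGT-133, 255.4 in TGT-140 and 296.9 in TGT-143, against 226.4, 222.6, 282.0, 289.7 and 282.6 in TGUT-131, TGUT-139, TGUT-145, TGUT-146 and TGUT-147. The training difference in transgenic mice was 0.22 ± 0.10 log2 there, and 0.12 without TGT-133, the mouse with the highest value and the second largest number of empty cells. On 1438483_at the same mice read 491.9, 519.6, 504.7, 429.3 and 498.6, against 394.0, 545.6, 572.2 and 574.1 in the 4 untrained transgenic mice other than TGUT-131, whose cell is empty. That difference was -0.07 ± 0.10, the opposite sign. With 1 array left out it ran from -0.19 without TGUT-139 to -0.03 without TGUT-147, and it was -0.03 without TGUT-146 or TGT-140 too.

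The transgenic difference in trained mice took opposite signs too, with 0.19 ± 0.10 log2 on 1422949_at and -0.10 ± 0.09 on 1438483_at (0.09 without TGT-133 on the first and -0.06 without TGT-140 on the second), while both probe sets were below 0 in the remaining single comparisons. Training in wild-type mice gave -0.15 ± 0.10 log2 on 1422949_at, where wtt-137 has an empty cell and 4 trained mice remain, and -0.12 ± 0.09 on 1438483_at. Untrained wild-type mice had the highest mean of the 4 groups on 1438483_at (585.6 ± 79.8) and the second highest on 1422949_at (306.2 ± 31.3, after 318.0 ± 69.7 in trained transgenic mice; SD, n = 5). WTUT-135 was the highest untrained wild-type mouse on both, at 715.4 and 349.8, and without it the wild-type training differences were -0.06 and -0.11. The transgenic difference in untrained mice was -0.19 ± 0.10 on 1422949_at and -0.15 ± 0.10 on 1438483_at, where it was -0.04 without TGUT-139 and -0.09 without WTUT-135. All 4 groups overlapped in both probe sets. In the order of the means, the step from trained to untrained wild-type mice on 1422949_at (267.7 ± 9.91 to 306.2 ± 31.3) was larger than either SD, and no other neighbouring means of the 2 probe sets stood further apart than the larger SD beside them.

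Nos3, the endothelial synthase, was lowest in untrained transgenic mice, with 146.7 in TGUT-131, 189.9 in TGUT-139, 223.8 in TGUT-145, 179.5 in TGUT-146 and 222.4 in TGUT-147. The other groups had nearly the same mean: 229.1 ± 14.7 in untrained wild-type, 230.0 ± 45.5 in trained wild-type and 228.4 ± 19.4 in trained transgenic mice, against 192.4 ± 32.2 (SD, n = 5), and the step up from the last of these was larger than the SD of either group beside it. Trained wild-type mice were spread widest, from 167.7 in WTT-144 to 287.9 in wtt-137. The transgenic difference was -0.20 ± 0.10 log2 in untrained and 0.00 ± 0.10 in trained mice, and the training difference was 0.19 ± 0.10 in transgenic and -0.01 ± 0.10 in wild-type mice. Without TGUT-131 the first of these was -0.13 and the training difference in transgenic mice 0.13. The values near 0 had no stable sign: without WTT-144 the transgenic difference in trained mice was -0.08 and the wild-type training difference 0.07, and without wtt-137 they were 0.07 and -0.08. Of 12 endothelial markers 10 passed the filter. Their list, all 12 summed, ran from 3510 to 4328 in untrained transgenic mice and from 3391 to 3891 in trained transgenic mice. In wild-type mice the sums ran from 3543 to 4449 without training and from 3794 to 4180 with it. Of the 10 markers tested, limma called 1 for training and 1 for the transgene, both lower. Of all tested probe sets 4.99% were called for training (2.59% lower) and 1.23% for the transgene (0.906% lower). Cldn5 (claudin-5) fell with training by 0.53 ± 0.14 on the log2 scale (limma adjusted p = 0.0359), while 5 of the 10 differences lay above 0 and 5 below, with Tie1 at 0.09 and Esam at 0.07. Cdh5 (VE-cadherin) fell with the transgene by 0.30 ± 0.06 (adjusted p = 0.0221), while 3 lay above 0 and 7 below, with Tek at 0.19 and Egfl7 at 0.12. Their part in the Nos3 levels was not tested.

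**Figure D2:**
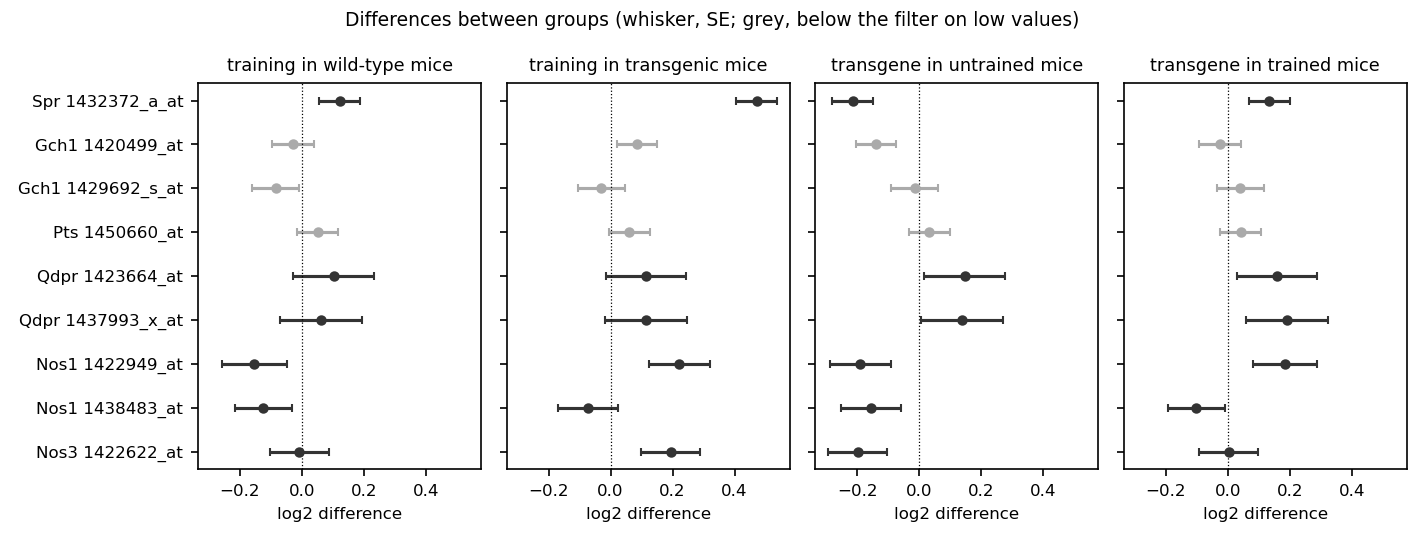
Difference between groups on the log2 scale with the added constant (horizontal axes) for the 9 probe sets (rows) in 4 single comparisons, as trained minus untrained or transgenic minus wild-type, with the SE as whiskers and grey for the 3 probe sets below the filter. Spr stands furthest to the right for training in transgenic mice (0.47 ± 0.07), and the Nos1 rows take opposite signs there.

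Of the 6 member probe sets that passed the filter, Spr alone did not overlap between trained and untrained transgenic mice, where 1.19% of the 13576 tested probe sets did not overlap in the higher and 2.05% in the lower direction. Spr was also the 1 of 6 that did not overlap between transgenic and wild-type untrained mice, where 0.714% of all lay lower and 0.722% higher. Between trained and untrained wild-type mice, and between transgenic and wild-type trained mice, 0 of the 6 were free of overlap (1.83% of all higher and 1% lower, and 0.862% higher and 1.69% lower). Since these levels were in view when the genes were chosen, the counts are given as a description. The 3 probe sets below the filter overlapped in all of these comparisons.

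TGUT-131 and TGUT-139 lay low in all 6 member probe sets that passed the filter, as far as they were measured. TGUT-139 lay below the probe set's mean over all mice in each of the 6, by 0.48 on the log2 scale for Spr and 0.51 for Qdpr 1437993_x_at. TGUT-131 lay below in the 5 it was measured in, by 0.36 for Spr and 0.42 for Nos3. The median intensity of these arrays was 170 for TGUT-139 and 164 for TGUT-131, within the range of the others. Of the 3 probe sets below the filter, TGUT-131 lay below the mean in all 3, while TGUT-139 lay 0.05 above it on Gch1 1429692_s_at. For Nos3 TGUT-146 was lower than TGUT-139. The members were read in the same mice and are not independent readings.

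**Figure D3:**
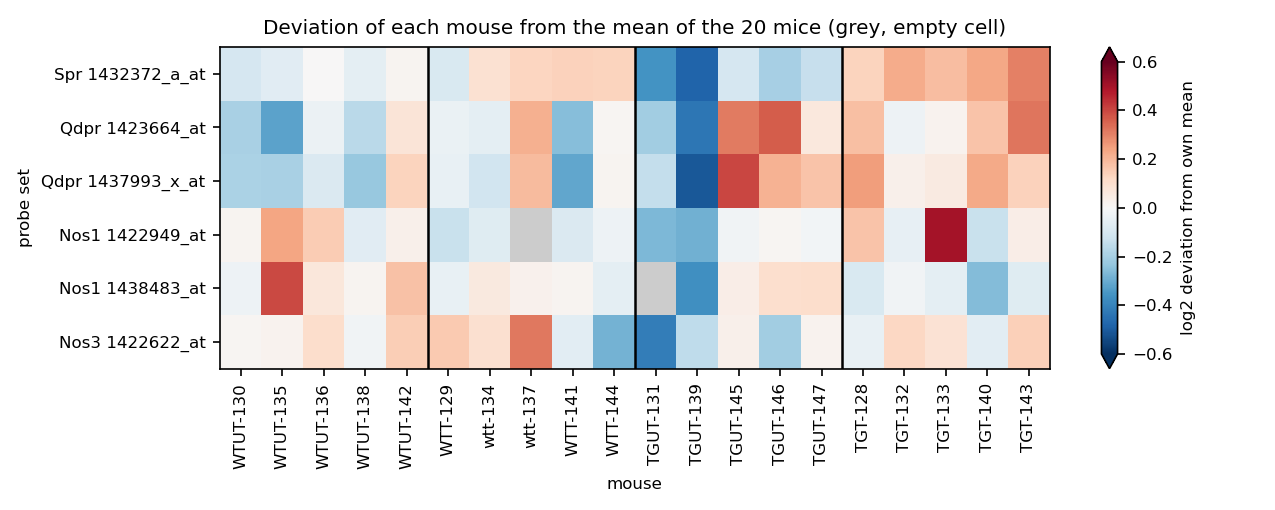
Log2 deviation of each mouse (columns, by group, separated by lines) from the mean of the 20 mice for the 6 probe sets that passed the filter (rows), red above and blue below, grey for an empty cell. The columns of TGUT-131 and TGUT-139 are blue in every measured row, and the Spr row is red in all 5 trained transgenic mice.

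Slow-fibre markers differed with genotype in these muscles and are given beside the members for that reason. Of 7 slow-fibre markers 5 fell in transgenic mice averaged over training (limma called 1.23% of all tested probe sets, 0.906% lower and 0.324% higher), and their summed intensity ran from 7066 to 18708 in untrained and 8743 to 16755 in trained wild-type mice against 5264 to 8008 and 5126 to 6531 in transgenic mice. The 4 nerve and Schwann cell markers on the array, of 6 listed, summed to between 693 and 1013 over all mice, and Nefl, a neurofilament, averaged 18.9. The part of either in the Nos1 and Spr levels was not tested.

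The genes with profiles most like each member over the arrays were picked by Pearson's r with the member's brightest probe set among 12467 tested probe sets with 1 symbol, as a description with no p. They were Fn3k (0.84) and Trp53inp2 (0.83) for Spr and Selenof (0.92) and Pip4p2 (0.91) for Qdpr, each over 20 arrays. For Nos1 they were Aebp1 (0.78) and Pfkm (0.78), the muscle phosphofructokinase, over 19 arrays, and for Nos3 Myadm and Slc9a3r2 (both 0.86) over 20. These values pool the 4 groups, so they hold differences between groups as well as between mice.

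The rest of the pathway was read with 75 further symbols, of which 52 were the only symbol of a probe set and 42 passed the filter. Averaged over genotypes, 2 of the 42 rose with training and 1 fell, where 4.99% of all tested probe sets were called, 2.41% higher and 2.59% lower. Pcbd2, a dehydratase of the recycling arm, rose from 135.8 ± 10.3 to 165.6 ± 16.9 in wild-type mice (SD, n = 5). In transgenic mice it rose from 138.4 ± 18.0 to 167.6 ± 11.0. With the added constant the averaged difference was 0.20 ± 0.04 log2 or 1.15-fold (limma adjusted p = 0.0181). Folds with the constant are smaller than the ratios of the printed means. Cav3, the muscle caveolin that binds nitric oxide synthase, rose from 254.9 ± 31.3 to 368.8 ± 38.6 and from 298.9 ± 100.001 to 465.2 ± 42.3, by 0.51 ± 0.10 log2 or 1.42-fold (adjusted p = 0.00926). Gsr, glutathione reductase, fell from 419.7 ± 34.4 to 321.3 ± 41.2 and from 330.8 ± 65.0 to 272.3 ± 21.9, by 0.27 ± 0.07 on the log2 scale (adjusted p = 0.0343). Pcbd2 and Cav3 were called in each of 20 fits with 1 array left out, Gsr in 10 of them (adjusted p up to 0.0703, without WTUT-135). The count of 3 was 7 without TGUT-145 or TGUT-146, 6 without WTT-144 and 5 without WTUT-138. It was 2 without TGT-128, TGT-140, TGT-143, TGUT-131, TGUT-139, TGUT-147, wtt-134, wtt-137, WTUT-130, WTUT-135 or WTUT-142. The count picks each gene's brightest tested probe set anew in each fit, while the named genes keep 1 probe set. Without wtt-134 Gsr was thus still called on its own probe set (limma adjusted p = 0.0454), though the count was 2.

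The median of the 42 training differences was 0.01 log2, against 0.00 over all probe sets, and 14 of the 42 had an unadjusted p under 0.05, where 20.7% of all tested probe sets had one. Of the cofactor partners 1 of 4 passed, with Pcbd1, the other dehydratase, at 267.8 ± 47.4 in trained and 265.0 ± 25.3 in untrained wild-type mice, and with Cbr1, a carbonyl reductase of the salvage route, at -0.10 ± 0.15 log2 (adjusted p = 0.784). In the dystrophin complex 0 of 9 passed, with 3 at an unadjusted p under 0.05 by limma, among them sarcospan (Sspn) at 0.31 ± 0.11 log2 (adjusted p = 0.0966) and dystrophin (Dmd) at -0.24 ± 0.09 (adjusted p = 0.107). In the arginine list 0 of 7 passed by limma, with Oat, ornithine aminotransferase, at -0.24 ± 0.07 (adjusted p = 0.051) and Agmat at 0.17 ± 0.05 (adjusted p = 0.0794) among 4 at an unadjusted p under 0.05. In the cyclic GMP list 0 of 5 passed, with the phosphodiesterases Pde3a at 0.18 ± 0.07 (limma adjusted p = 0.138, 1 at an unadjusted p under 0.05) and Pde1a at 0.13 ± 0.10 (adjusted p = 0.503). Among the partners of the synthases Cav1, the caveolin of endothelium and fat, stood at 0.16 ± 0.10 (adjusted p = 0.402). Th, tyrosine hydroxylase, the measured tetrahydrobiopterin-dependent hydroxylase, stood at -0.04 ± 0.05 (adjusted p = 0.769). Myoglobin, Mb, which oxidises nitric oxide, stood at 0.24 ± 0.07 (adjusted p = 0.0594).

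With the transgene, averaged over training, 1 of the 42 rose and 2 fell, all in the list of denitrosylation and nitric oxide removal (3 of its 8 measured members, against 1.23% of all probe sets). Nqo1 is a quinone reductase listed there as a redox enzyme. It rose from 130.6 ± 5.61 to 156.9 ± 11.4 in untrained and from 127.95 ± 3.73 to 144.9 ± 5.04 in trained mice (SD, n = 5). With the added constant the averaged difference was 0.15 ± 0.03 log2 or 1.11-fold (limma adjusted p = 0.0117). These levels lay little above the filter at about 126. With the filter at the 60th percentile, 0 pathway genes were called higher and 2 lower. Txn1, thioredoxin, which removes nitric oxide groups from proteins, fell from 1471 ± 130 to 1211 ± 296 and from 1347 ± 97.0 to 999.5 ± 97.1, by 0.35 ± 0.08 on the log2 scale (adjusted p = 0.0467). Cyb5r3, a cytochrome b5 reductase, fell from 411.8 ± 25.2 to 362.2 ± 36.3 and from 462.0 ± 34.2 to 375.9 ± 29.1, by 0.21 ± 0.05 (adjusted p = 0.0346). With 1 array left out Nqo1 was called in 20 of 20 fits, Cyb5r3 in 10 and Txn1 in 4, and the count of 3 was 6 without wtt-137 and 1 without TGT-128, TGT-132, TGT-143, TGUT-146, WTT-129, WTT-141, WTUT-130, WTUT-136 or WTUT-142. Under quantile normalization 2 of the 42 were called higher and 1 lower.

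Among the synthase partners 0 of 8 passed for the transgene, with 6 at an unadjusted p under 0.05 by limma (17.3% of all tested probe sets had one, and 16 of the 42), and their median was -0.14 log2 against 0.00 over all probe sets. Cav1 stood at -0.27 ± 0.10 (adjusted p = 0.180) and Akt1, a kinase that phosphorylates Nos3, at -0.25 ± 0.10 (adjusted p = 0.191). Of the 8 differences 3 lay above 0 and 5 below. Cav3 was among those above, at 0.15 ± 0.14 in untrained and 0.29 ± 0.14 in trained mice. In the dystrophin complex 0 of 9 passed, with Sgca at 0.12 ± 0.05 (adjusted p = 0.193) and Dtna at 0.15 ± 0.07 (adjusted p = 0.254; 3 at an unadjusted p under 0.05 by limma). Prmt1, an arginine methyltransferase, stood at 0.26 ± 0.07 (adjusted p = 0.0785), Odc1, ornithine decarboxylase, at -0.30 ± 0.16 (adjusted p = 0.336) and Pde2a, a phosphodiesterase, at -0.31 ± 0.10 (adjusted p = 0.111). In the cofactor list 0 of 4 passed by limma (0 at an unadjusted p under 0.05), and Pcbd1 stood at 0.08 ± 0.07 (adjusted p = 0.573) and Cbr1 at 0.11 ± 0.15 (adjusted p = 0.743).

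**Figure D4:**
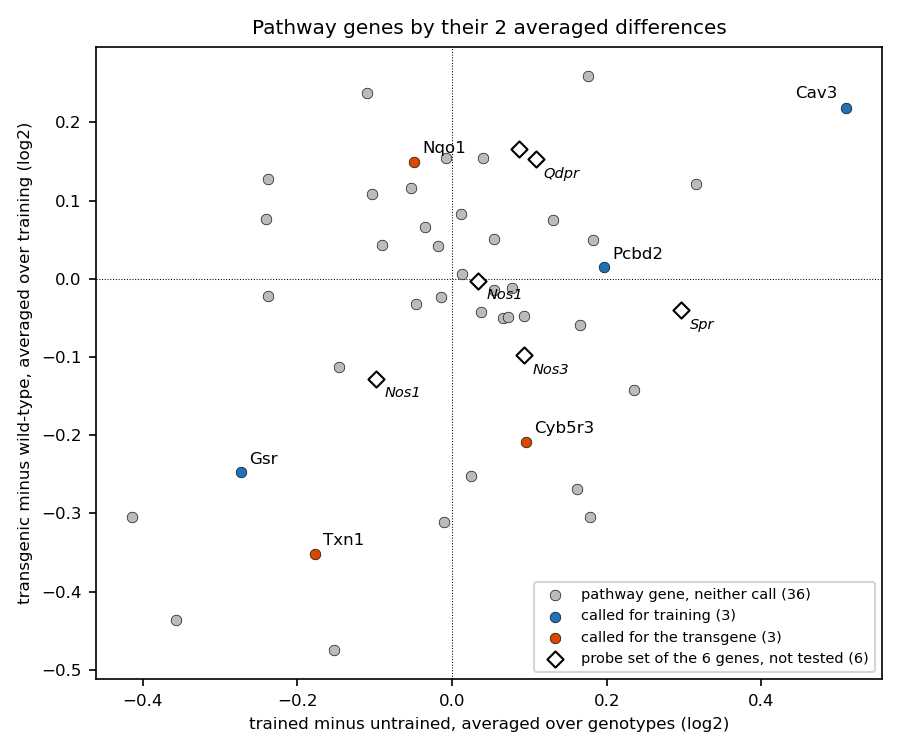
Trained minus untrained (horizontal) against transgenic minus wild-type (vertical), both averaged over the other factor and on the log2 scale, for 42 further pathway genes (circles, blue where limma called training and orange where it called the transgene) and the 6 member probe sets that passed the filter (diamonds, not tested). Cav3 stands furthest right at 0.51, and the Spr diamond lies between Pcbd2 and Cav3 along the training axis.

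In each of the 4 single comparisons limma called 0 of the 42 pathway genes. For training in wild-type mice 7 of the 42 had an unadjusted p under 0.05, against 7.87% of all tested probe sets, and 0% of all were called. For training in transgenic mice it was 13 of the 42, against 17.4% of all, and 0.309% of all were called (0.133% higher and 0.177% lower). For the transgene in untrained mice it was 7 of the 42, against 8.12% of all, with 0.11% called (0.0147% higher and 0.0958% lower). In trained mice it was 9 of the 42, against 12.5% of all, with 0.0516% called, each of them lower.

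For the interaction of training and transgene limma called 0 of the 42 pathway genes (0 at an unadjusted p under 0.05) and 0 of 13576 probe sets (395 at an unadjusted p under 0.05), that is 0% of all. The values with the smallest p in their lists included 0.47 ± 0.26 log2 for Dynll1, the light chain also known as an inhibitor of Nos1, 0.10 ± 0.08 for Pfkm, -0.45 ± 0.32 for Odc1 and -0.31 ± 0.19 for Pde2a (adjusted p = 0.9999 for each). The corresponding descriptive values of the members were 0.35 ± 0.09 for Spr, 0.38 ± 0.14 and 0.05 ± 0.13 for the Nos1 probe sets, 0.20 ± 0.13 for Nos3, and 0.01 ± 0.18 and 0.05 ± 0.19 for Qdpr. On Nos1 1422949_at the value was 0.28 without TGT-133. For Nos3 it ran from 0.12 (without WTT-144) to 0.27 with 1 array left out. Without TGUT-139 it was -0.06 on Nos1 1438483_at and -0.10 and -0.08 on the Qdpr probe sets, the opposite sign. The further pathway genes below the filter included Nos2, the inducible synthase, at 82.2 to 130 in intensity, and Arg1 and Arg2, the arginases, at 19.8 to 39.6 and 36.1 to 57.5.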

How the data were processed

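Total RNA of skeletal muscle from 20 mice was labelled with biotin, per the labels, and measured on 1 array per mouse. Each deposited value is a linear intensity, between 0 and 19078. The array medians show that the authors had scaled the arrays to a common level. Their summary and scaling methods: not given in the sources used here. Values were used as deposited, and 66.7, the 20th percentile of the table, was added before log2. After dropping 64 control probe sets, 13576 of 22626 probe sets with a mean over all arrays at or above the 40th percentile (7.59 log2) were tested. Symbols come from the platform annotation: 20380 probe sets carry 1, 691 several and 1555 none. Empty cells (1745) were treated as missing, except in marker sums, where they took the probe set's mean over the other arrays.

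A linear model of the 4 groups was fitted by limma 3.58.1 (R 4.3.3), using moderated variances with a trend, two-sided tests and Benjamini-Hochberg adjustment over all tested probe sets. A call is an adjusted p under 0.05. Fold changes and SEs are on the log2 scale with the constant, so the folds are smaller than the ratios of the mean intensities. The fit was tested on data simulated with independent noise for each probe set, with no array effects and no empty cells. How calls depend on single arrays was not covered by it. P-values set each difference against the spread between these mice, and the small number of mice per group limits the precision.

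Members below the filter were read from a fit without it. Each further gene stands for its brightest tested probe set. The text names all member probe sets and the 2 genes most like each member. From each pathway list it names up to 4 higher and 4 lower called genes per averaged comparison. Where fewer than 2 passed, it names those with the smallest p, except that Th and Pde1a were left out for the transgene. For the interaction only some of the genes with the smallest p are given. H2-K1, H2-D1, B2m, Cldn5, Cdh5, Tie1, Esam, Tek, Egfl7, Nefl, Nos2, Arg1 and Arg2 were added after their values were seen. Members, lists and alternatives were chosen with earlier results of these data known. Alternatives tried were centring on array medians, quantile normalization, other constants and filters, no variance trend, robust variances, array weights, avoiding probe sets that may bind more than 1 transcript, and leaving out each array. Leaving out the 2 arrays with the most empty cells, and running the alternatives on the single comparisons, was decided after seeing the data.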

Additional observations from a re-analysis of the deposited data

Results flagged for a closer look

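In 152 groups of 4 or 5 mice (38 probe sets), 7 values stood apart from the rest of their group by Dixon's test on log2 values. Chance gives about 1 in 20 groups. Spr read 263.8 in WTT-129 against 308.6 in the nearest trained wild-type mouse. Nos1 1438483_at read 394.0 in TGUT-139 (nearest 545.6) and 429.3 in TGT-140 (nearest 491.9). Of the further pathway genes, Odc1 read 2629 and Gsr 250.3 in wtt-137 (nearest 4106 and 320.7), Mb 6662 in TGUT-146 (nearest 9682) and Nqo1 136.1 in TGT-128 (nearest 146.1).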

How the results depend on the processing

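The 42 further pathway genes held 3 calls for training and 3 for the transgene, and the probe sets 678 and 167. With array weights these were 13 and 5 genes and 2716 and 617 probe sets, with 7 probe sets for the interaction (all lower). Without the filter they were 448 and 111 probe sets and 1 gene for the transgene. Centring on array medians gave 409 probe sets for training. Without wtt-137 and TGT-133 together, chosen after seeing the data, it was 410 and 399 probe sets and 7 genes for the transgene. Leaving out 1 array gave 2 to 7 genes and 279 to 1284 probe sets for training, lowest without TGT-128 and highest without TGUT-145, and 1 to 6 genes and 79 to 526 probe sets for the transgene, lowest without WTT-141 and highest without wtt-137. For the transgene the 167 split into 44 higher and 123 lower, and under quantile normalization into 113 and 120.

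For the members, Spr kept its sign in all 30 alternatives in each of the 4 single comparisons. Values of the other members that lay near 0 changed sign in some alternatives: Nos3 for training in wild-type mice ran from -0.08 without wtt-137 to 0.07 without WTT-144. Gsr, Cyb5r3 and Txn1 kept their sign in all 20 fits with 1 array left out, with adjusted p by limma of 0.00631 to 0.0703, 0.0237 to 0.0803 and 0.00909 to 0.100. Gsr lost its call without TGT-128, TGT-140, TGT-143, TGUT-131, TGUT-139, TGUT-147, WTUT-130, WTUT-135, WTUT-142 or wtt-137, and Cyb5r3 without TGT-128, TGT-132, TGT-143, TGUT-139, TGUT-146, WTT-129, WTT-141, WTUT-130, WTUT-136 or WTUT-142. Txn1 kept its call only without TGUT-139, TGUT-147, wtt-134 or wtt-137. The cause of these changes was not tested. No paired analysis was possible because the mouse numbers in the titles are not shared between groups. Signal close to the low end of the array limits Gch1 and Pts.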
